A study of Mus musculus with 13 samples.

Results

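Active H3K27ac chromatin was examined at 8 genes that β-catenin switches on and whose products feed back on the Wnt pathway: *Axin2*, *Apcdd1*, *Nkd1*, *Notum*, *Sp5*, *Rnf43*, *Znrf3* and *Lgr5*. They were chosen by name, and all 8 are among the 21755 protein-coding genes annotated on mouse chromosomes 1 to 19 and X. For each gene the window was the mm10 gene body plus 20 kb on each side, and the peaks of 9 deposited lists were counted in it. A promoter call means that a peak touches the promoter window, the bases up to 1 kb from a start site (TSS) of the gene. Intronic and distal coverage means the stretches of the window covered by peaks more than 1 kb from any TSS of a protein-coding gene. It includes the outer parts of peaks that also touch a promoter window. Elements are peaks of the 9 lists merged where they overlap or touch, and intronic and distal elements touch no promoter window.

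Wnt ligands stabilise β-catenin, which enters the nucleus and activates genes together with TCF/LEF transcription factors. Several of the genes it activates restrain the pathway again: AXIN2 is a scaffold of the complex that destroys β-catenin, NKD1 binds Dishevelled, NOTUM is a secreted enzyme that strips the lipid from Wnt ligands, APCDD1 is a membrane protein that binds Wnt, and ZNRF3 and RNF43 are ubiquitin ligases that remove Wnt receptors from the cell surface. LGR5 is a receptor for R-spondins, which relieve that removal, and SP5 is a zinc-finger transcription factor that acts on other Wnt target genes. E-cadherin (encoded by *Cdh1*) binds β-catenin at cell contacts, and the Wnt pathway is active during melanocyte development.

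The 9 lists came from melanoma cell lines, each established from a mouse carrying *Tyr::NRAS* (Q61K) and heterozygous for *Cdkn2a*, on a C57BL/6J background. Ecad lines (*Cdh1* F/F without Cre) were Ma_1014 and Ma_1039 from females and Ma_1007 and Ma_1181 from males. ΔEcad lines, in which *Tyr::CreA* deletes *Cdh1*, were Ma_1057, Ma_1064 and Ma_1069 from females and Ma_1062 and Ma_1456 from males. The *Tyr* promoter confines both transgenes to the melanocyte lineage, each line is 1 line grown in culture, and the 4 input libraries were not analysed here. H3K27ac, acetylation of lysine 27 of histone H3, marks active promoters and enhancers. The lists held 20741 (Ma_1069) to 41663 (Ma_1007) peaks and covered 29.5 to 67.2 Mb, with 29.5 to 39.5 Mb in the female ΔEcad lists and 37.1 to 67.2 Mb in the other 6. Read depth is unknown from peak lists, a missing peak is a region below the threshold and not a region without the mark, and a peak absent from some cells cannot be told apart from a weaker mark in all cells. Promoters of 6 or 7 of 7 melanocyte-lineage markers were called in every list, against 0 or 1 of 4 keratinocyte, 0 or 1 of 3 fibroblast and none of the immune (0 of 4) or endothelial (0 of 3) markers.

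The letters CTTTGAA and CTTTGAT, searched on both strands, are forms of the site that TCF/LEF factors bind. They are shown in capitals, where present, in 4 sequences from a promoter and elements described below, and entered no test. The promoter of *Sp5* (RefSeq, GRCm38.p6, chr2:70474673-70474972, plus strand) stands for promoters that only some lines called. The *Axin2* window (chr11:108922914-108923114, plus strand, in the first part of the gene outside its exons) is the stretch with the most such letters in the element that all 9 lines called at its start. Both *Znrf3* windows lie around peak summits on the minus strand, at chr11:5271501-5271701 downstream of the gene and at chr11:5290479-5290679 in an intron, in the elements that all 3 female ΔEcad lines called and at most 1 other line did.
Sp5 promoter: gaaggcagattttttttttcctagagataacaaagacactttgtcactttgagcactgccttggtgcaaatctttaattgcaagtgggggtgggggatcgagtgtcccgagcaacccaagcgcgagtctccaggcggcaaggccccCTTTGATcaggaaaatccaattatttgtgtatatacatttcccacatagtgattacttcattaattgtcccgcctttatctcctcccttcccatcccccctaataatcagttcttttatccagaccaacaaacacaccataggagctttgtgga
Axin2 element at the start: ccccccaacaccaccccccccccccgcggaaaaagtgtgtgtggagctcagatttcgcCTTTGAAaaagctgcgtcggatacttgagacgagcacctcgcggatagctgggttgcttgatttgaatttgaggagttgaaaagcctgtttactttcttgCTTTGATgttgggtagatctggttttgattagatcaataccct
Znrf3 downstream element: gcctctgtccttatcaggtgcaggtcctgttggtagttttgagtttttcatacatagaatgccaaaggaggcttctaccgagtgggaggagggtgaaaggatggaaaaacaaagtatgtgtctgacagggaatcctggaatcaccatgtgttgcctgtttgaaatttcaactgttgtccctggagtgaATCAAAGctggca
Znrf3 intronic element: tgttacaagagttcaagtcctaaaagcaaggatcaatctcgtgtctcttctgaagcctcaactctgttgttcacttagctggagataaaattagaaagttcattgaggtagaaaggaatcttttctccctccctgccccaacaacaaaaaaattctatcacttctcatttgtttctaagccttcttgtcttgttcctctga

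The *Sp5* promoter holds 1 copy of the letters, the *Axin2* window holds 2 and the *Znrf3* downstream window holds 1, whereas the *Znrf3* intronic window holds 0. The *Axin2* window was picked for its letters and cannot be set against a background rate. Without such picking, the other 4 RefSeq promoter entries of the members held 0 copies, and 1 of the 6 summit windows read at *Axin2*, *Znrf3* and *Lgr5* held any. The letters were in 8.68% of the 32619 RefSeq promoters of the same 300 bases and in 8.53% of 201-base summit windows of all 32033 intronic and distal elements. They are a description of the sequence and not a bound site.

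Summed over the 8 windows, intronic and distal coverage was 61.2 kb in Ma_1069, 38.5 kb in Ma_1057, 35.2 kb in Ma_1181, 25.2 kb in Ma_1007 and 21.4 kb in Ma_1064. The other 4 lines had 7.55 to 10.9 kb. All 3 female ΔEcad lines and both male Ecad lines thus stood above both female Ecad and both male ΔEcad lines. This order was that of the sum and not of every gene. *Znrf3* alone gave 12.7 kb of it in Ma_1064 and 15.1 kb in Ma_1007. In Ma_1181, *Lgr5* gave 13.4 kb and *Axin2* 8.24 kb. Set against the summed coverage of all gene windows, the 8 genes took 253 kb of every 100000 kb in Ma_1069, 139 kb in Ma_1057, 117 kb in Ma_1181 and 64.9 kb in Ma_1064, and 19.6 to 49.1 kb in the other 5. Ma_1069 therefore had the most coverage here although its list was the shortest.

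**Figure D1:**
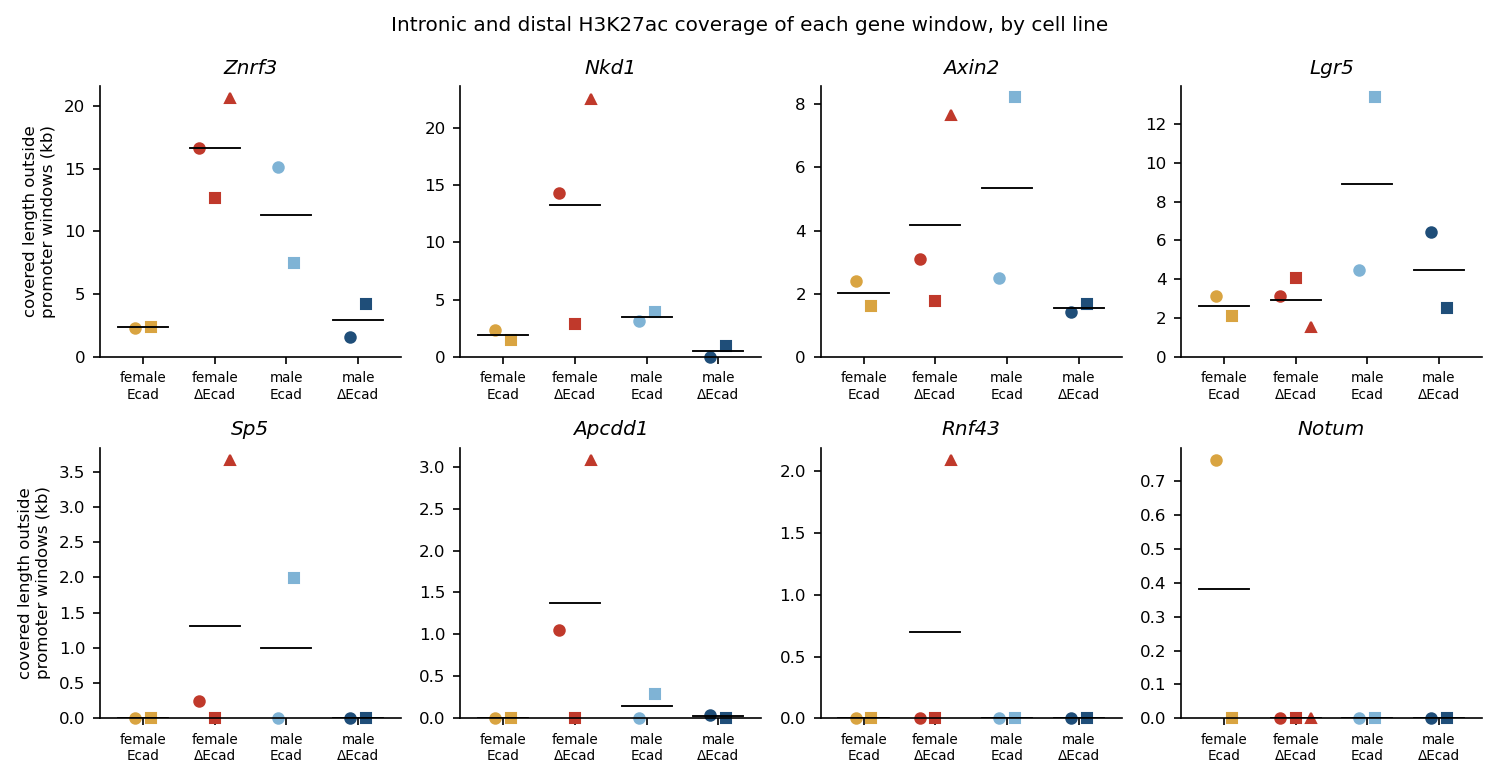
Length covered by H3K27ac peaks outside promoter windows in the window of each of the 8 genes (y axis, kb, own scale per gene), by group (x axis). Each symbol is 1 cell line and each bar the group mean; in Znrf3 and Nkd1 every female ΔEcad line lies above both female Ecad lines and both male ΔEcad lines below both male Ecad lines.

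*Znrf3* and *Nkd1* had more covered chromatin in female ΔEcad lines than in the other 6, by 11.1 and 11.3 kb on average. The differences of the other members lay between −2.41 and 1.32 kb. Covered kb was not scaled to window length, and a longer window can hold a larger difference in either direction. Windows were 209 kb for *Znrf3*, 177 kb for *Lgr5*, 114 kb for *Nkd1*, 113 kb for *Rnf43* and 42.8 to 78.9 kb for the rest. The difference was positive for 6 of 8 members, with a median of 1.08 kb. Of the 13126 genes tested it was positive for 24.8%, with a median of −0.39 kb. The count of 6 rested partly on Ma_1069. Without that line the difference was −0.544 kb for *Axin2*, −0.206 kb for *Sp5* and 0 kb for *Rnf43*. It stayed positive for *Znrf3*, *Nkd1* and *Apcdd1*. By the exact permutation test over lines (two-sided, 84 choices, smallest possible p 0.0119), 2 of 8 members had an unadjusted p under 0.05 with more coverage, set against 2.70% of all genes tested, and 0 of 8 with less, against 10.6%. All 8 had an intronic or distal peak in at least 1 list, although *Rnf43* had one only in Ma_1069 and *Notum* only in Ma_1014. After Benjamini-Hochberg adjustment over all genes, 0 of 13126 passed 0.05 (1742 had an unadjusted p under 0.05, and the lowest adjusted permutation p was 0.234). The study had named *Apcdd1*, *Axin2*, *Nkd1*, *Notum* and *Sp5* from these lines, so their direction is not independent evidence.

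**Figure D2:**
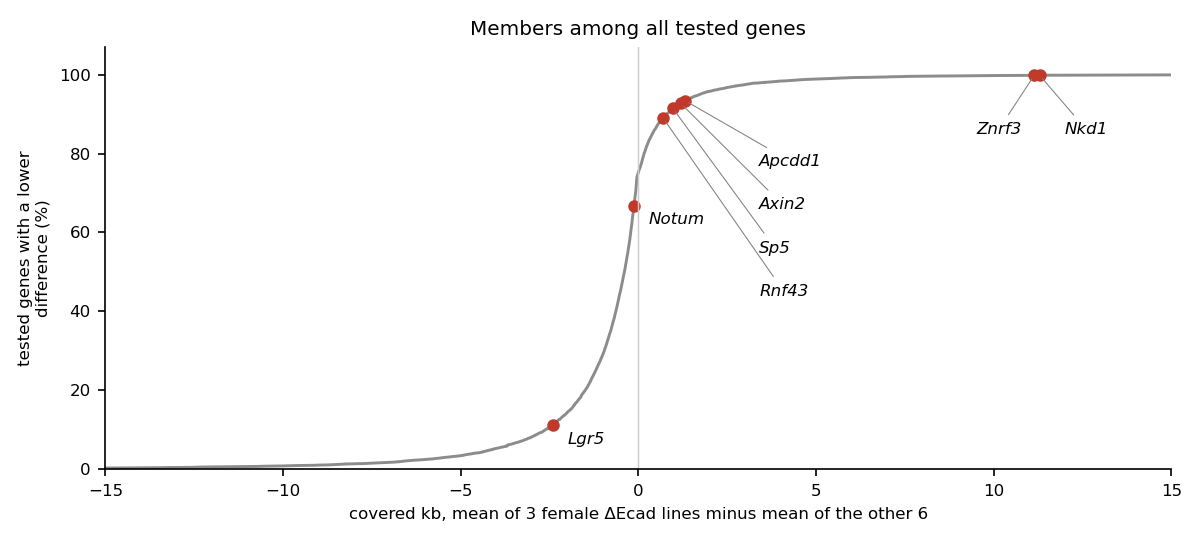
Difference in covered kb between the mean of the 3 female ΔEcad lines and that of the other 6 (x axis) against the percentage of the 13126 tested genes with a lower difference (y axis). The grey line is all tested genes and the red points the 8 members. Nkd1 and Znrf3 lie above 99.8% of genes and Lgr5 above 11.2%, in kb not scaled to window length.

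*Znrf3* (ENSMUSG00000041961.14, chromosome 11, 5276324 to 5444847, minus strand) encodes a ligase that takes Wnt receptors off the membrane. Its window had 16.7, 12.7 and 20.6 kb of intronic and distal coverage in Ma_1057, Ma_1064 and Ma_1069. The female Ecad lines Ma_1014 and Ma_1039 had 2.317 and 2.396 kb, the male ΔEcad lines Ma_1062 and Ma_1456 had 1.60 and 4.25 kb, and the male Ecad lines Ma_1007 and Ma_1181 had 15.1 and 7.47 kb. Only Ma_1007 among the other 6 reached the range of the female ΔEcad lines. The means were 16.7 ± 3.97 kb (SD, n = 3) and 5.52 ± 5.16 kb (SD, n = 6), a difference of 11.1 kb (exact permutation p = 0.0238, adjusted over all genes 0.289). Peak number followed: 12, 9 and 14 peaks in the female ΔEcad lists, 9 in Ma_1007, 5 in Ma_1181 and 2 to 4 in the remaining 4 (difference 7.33 peaks, exact permutation p = 0.0238, adjusted 0.861). Without Ma_1181, Ma_1014, Ma_1039, Ma_1062, Ma_1456, Ma_1057 or Ma_1069 in turn, the permutation p for covered kb rose to between 0.0536 and 0.0714. That for peak number rose to 0.0714 without Ma_1057 or Ma_1069. Fewer choices remain without a female ΔEcad line, and the smallest possible permutation p is then 0.0357, against 0.0119 with all lines. Such a rise is therefore not by itself a weaker difference. The downstream flank reaches into *Kremen1*, a receptor for DKK proteins, and over the gene body alone the difference was 8.06 kb (exact permutation p = 0.0357).

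**Figure D3:**
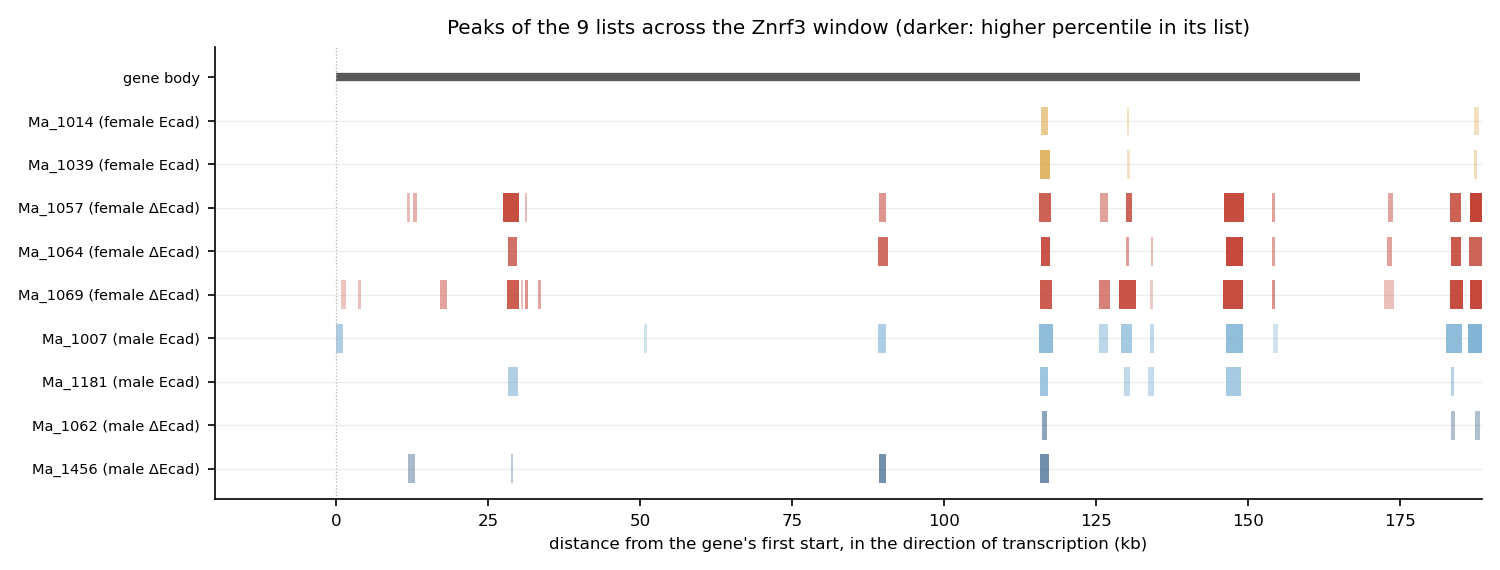
Peaks of the 9 lists across the Znrf3 window, by distance from its first start in kb (x axis), 1 row per cell line, coloured by group, with darker bars for a higher percentile of −log10 q within the list and the gene body in grey. The element near 117 kb is in all 9 rows, and those near 154 and 173 kb are in all 3 female ΔEcad rows and in 1 and 0 of the other 6.

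Along *Znrf3*, 1 of 17 intronic and distal elements was called in all 9 lists. This intronic element, centred 116.7 kb from the start, covered 1597 to 1949 bp in the female ΔEcad lists and 732 to 2306 bp in the others, at percentiles of 72.8 to 81.2 and 34.4 to 82.3 of −log10 q in the respective lists. An element 147.7 kb from the start reached percentiles of 86.9, 89.3 and 85.2 in Ma_1057, Ma_1064 and Ma_1069, 80.8 in Ma_1007 and 59.4 in Ma_1181, and was not called in the other 4. Another, 28.8 kb from the start, reached 85.2, 62.6 and 74.9 in the female ΔEcad lists, 47.8 in Ma_1181 and 7.04 in Ma_1456. These 2 were described after their values had been seen. The elements that separated the groups most were weak ones: the downstream element 173.2 kb from the start was at percentiles of 26.5, 29.1 and 8.32, and the intronic element 154.5 kb from the start at 29.0, 28.5 and 39.4, with 14.7 in Ma_1007. At the start of *Znrf3* itself, only Ma_1007 (percentile 53.1) and Ma_1069 (percentile 5.25) had a peak, so the promoter call missed 7 of 9 lines that had between 1.60 and 16.7 kb of coverage elsewhere in the window.

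*Nkd1* (ENSMUSG00000031661.12, chromosome 8, 88521354 to 88594884, plus strand) encodes an inhibitor that acts through Dishevelled. Coverage was 14.3 kb in Ma_1057, 2.86 kb in Ma_1064 and 22.5 kb in Ma_1069. In Ma_1069 it included the outer parts of peaks of 9117 and 4164 bp that touch promoter windows of the gene. The female Ecad lines had 2.32 (Ma_1014) and 1.43 kb (Ma_1039), the male Ecad lines 3.12 (Ma_1007) and 3.88 kb (Ma_1181), and the male ΔEcad lines 0 (Ma_1062) and 0.942 kb (Ma_1456). Ma_1057 and Ma_1069 stood apart from all other lines, whereas Ma_1064 lay among them. The means were 13.2 ± 9.89 kb (SD, n = 3) and 1.95 ± 1.44 kb (SD, n = 6), with a difference of 11.3 kb (exact permutation p = 0.0357, adjusted over all genes 0.327). Peak number was 6, 3 and 4 in Ma_1057, Ma_1064 and Ma_1069 and 0 to 3 in the others (difference 3 peaks, exact permutation p = 0.0238, adjusted 0.861). Peak number over all genes gave an unadjusted permutation p under 0.05 with more peaks for 1.93% of genes, against *Nkd1* and *Znrf3* of the 8 members. The permutation p for the peak number of *Nkd1* was 0.0536 or 0.0714 without Ma_1007, Ma_1014, Ma_1456, Ma_1057 or Ma_1069. Here too the smallest possible permutation p was 0.0357 without a female ΔEcad line. Without Ma_1069 the difference in covered kb was 6.65 kb, and the permutation p was 0.0536 to 0.107 without Ma_1014, Ma_1039, Ma_1062, Ma_1456, Ma_1057 or Ma_1069. The p for covered kb was 0.0595 (exact permutation) when only peaks at or above the median −log10 q of their list were kept, and 0.0952 (exact permutation) without both the longest and the shortest list (Ma_1007 and Ma_1069).

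The distal element 83.1 kb from the *Nkd1* start, beyond the end of the gene, was called in all lines except Ma_1062. It lay at percentiles of 98.3, 90.3 and 99.2 in Ma_1057, Ma_1064 and Ma_1069, at 98.7 and 85.6 in Ma_1007 and Ma_1181, at 96.5 and 71.3 in Ma_1014 and Ma_1039 and at 77.1 in Ma_1456. Its percentile was at or above 71.3 in each of the 8 lists, Ecad and ΔEcad alike. Inside the gene, by contrast, an intronic element 48.97 kb from the start was called only in Ma_1057 (2436 bp) and Ma_1069 (2633 bp). A broad element around an internal start, centred at 56.1 kb, covered 4650 bp in Ma_1057, 9117 bp in Ma_1069 and 458 bp in Ma_1181. A further element at 74.1 kb, which overlaps an exon with UTR, covered 2128, 4143 and 478 bp in the same 3 lines. These elements were described after their values had been seen. The element just downstream of the first start covered 2610, 1239 and 4164 bp in Ma_1057, Ma_1064 and Ma_1069 and 691 and 1494 bp in Ma_1007 and Ma_1181.

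**Figure D4:**
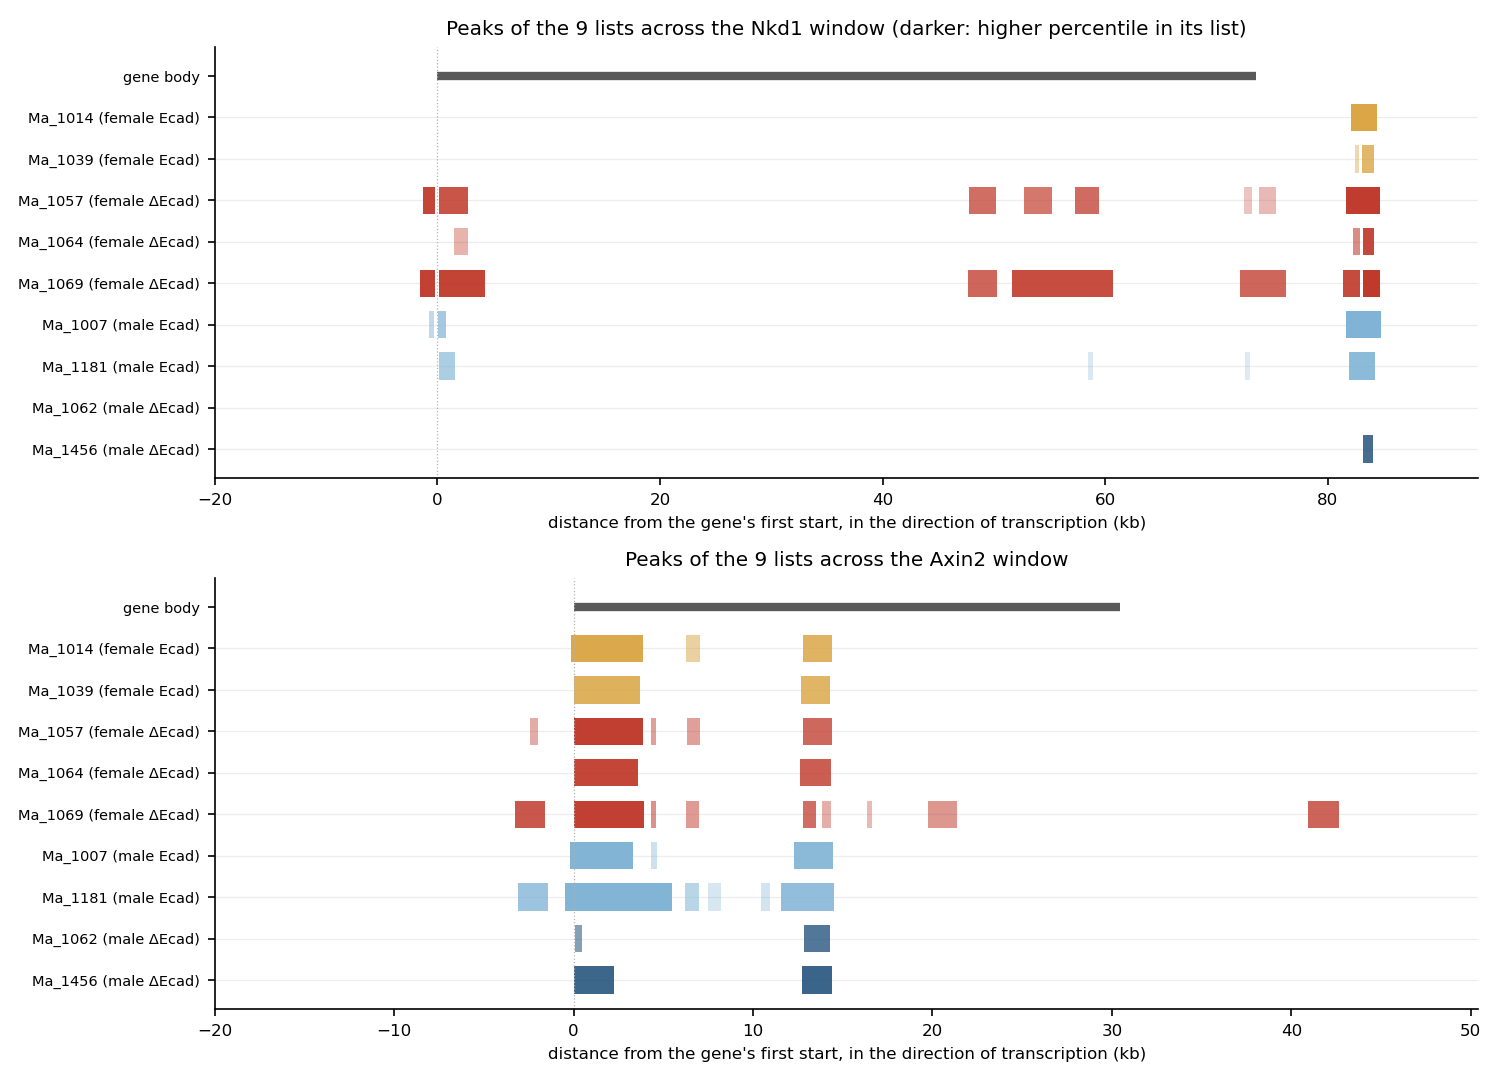
Peaks of the 9 lists across the Nkd1 (top) and Axin2 (bottom) windows, by distance from the first start in kb (x axis), 1 row per cell line, coloured by group, with darker bars for a higher percentile of −log10 q within the list and the gene body in grey. Nkd1 has intronic peaks near 49 kb in Ma_1057 and Ma_1069, and Axin2 has the element near 13 kb in all 9 rows.

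*Axin2* (ENSMUSG00000000142.15, chromosome 11, 108920349 to 108950783, plus strand), the scaffold of the destruction complex, was the member whose promoter was called in all 9 lists, and the element there covered 3526 to 4216 bp in the female ΔEcad lists, 3692 to 6000 bp in the Ecad lists and 357 and 2204 bp in Ma_1062 and Ma_1456. Percentiles at that element were 91.7 to 96.3, 80.6 to 97.7, and 38.6 and 82.1, respectively. The intronic element 13.0 kb from the start was also in all 9 lists, at 64.4 to 75.4 in the female ΔEcad and 69.3 to 87.2 in the other lists. In all, intronic and distal coverage was 3.09, 1.76 and 7.65 kb in Ma_1057, Ma_1064 and Ma_1069, 2.48 and 8.24 kb in Ma_1007 and Ma_1181, 2.397 and 1.63 kb in Ma_1014 and Ma_1039 and 1.43 and 1.66 kb in Ma_1062 and Ma_1456. One female ΔEcad and 1 male Ecad line were far above the rest, and the groups overlapped (4.17 ± 3.09 kb, SD, n = 3, and 2.97 ± 2.62 kb, SD, n = 6, exact permutation p = 0.619, adjusted 0.899). Without Ma_1069 the difference of 1.20 kb became −0.54 kb. Ma_1069 called 3 *Axin2* elements that no other list did, at 16.5, 20.6 and 41.8 kb.

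*Lgr5* (ENSMUSG00000020140.15, chromosome 10, 115450311 to 115587780, minus strand), the R-spondin receptor, was the member with the lowest difference. Coverage was 3.15, 4.07 and 1.55 kb in Ma_1057, Ma_1064 and Ma_1069, 4.48 and 13.4 kb in Ma_1007 and Ma_1181, 3.12 and 2.11 kb in Ma_1014 and Ma_1039 and 6.43 and 2.51 kb in Ma_1062 and Ma_1456. The groups overlapped, with a difference of −2.41 kb (exact permutation p = 0.476, adjusted 0.796). An element 67.1 kb from the start, which overlaps an exon, was in all 9 lists. It covered 3154, 3396 and 1553 bp in the female ΔEcad lists and 2106 to 6276 bp in the others, and was widest in Ma_1181 (percentile 95.5). Promoter calls in Ma_1007, Ma_1062 and Ma_1064 came from internal starts, in an element centred 129.6 kb into the gene, and only Ma_1181 had a peak at the first start (2650 bp, percentile 72.1).

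*Sp5* (ENSMUSG00000075304.2, chromosome 2, 70474923 to 70477729, plus strand), the zinc-finger factor, had 1 element, which reached the promoter in Ma_1057, Ma_1064, Ma_1069, Ma_1007 and Ma_1181 and in none of the other 4. It covered 1615, 907 and 5490 bp in the female ΔEcad lists (percentiles 69.9, 53.5 and 79.4), 610 bp in Ma_1007 (percentile 9.10) and 3988 bp in Ma_1181 (percentile 86). The part outside the promoter window was 0.25, 0 and 3.66 kb in the female ΔEcad lines and 1.99 kb in Ma_1181, and 0 in the other 5 (exact permutation p = 0.393). *Apcdd1* (ENSMUSG00000071847.13, chromosome 18, 62922231 to 62961179, plus strand), the membrane Wnt inhibitor, had 1.05, 0 and 3.07 kb in Ma_1057, Ma_1064 and Ma_1069, 0.294 kb in Ma_1181, 0.044 kb in Ma_1062 and 0 in the other 4 (difference 1.32 kb, exact permutation p = 0.0833, adjusted 0.397). The far flank reaches the neighbouring gene *Napg*, where an element that touches a promoter window was called in all 6 other lines and in no female ΔEcad line. It was weak in some, at percentiles from 3.36 in Ma_1456 and 4.41 in Ma_1014 to 53.3 in Ma_1181. Such elements were outside the element test, so no share over all elements stands beside this split. The next element at *Napg* was called in Ma_1014, Ma_1062 and Ma_1057. The promoter calls of *Apcdd1* in Ma_1057 and Ma_1069 came from an internal start, in an element centred 9.86 kb into the gene. Only Ma_1069 also had a peak near the first start, at percentile 3.57. The 1.05 kb of Ma_1057 was the part of its internal-start peak outside the promoter window. The 0.044 kb of Ma_1062 was likewise part of the promoter-touching peaks at *Napg*.

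*Rnf43* (ENSMUSG00000034177.15, chromosome 11, 87662722 to 87735539, plus strand), the paralogue of *Znrf3*, had no promoter call in any list. Its 2 intronic elements, 27.1 and 63.1 kb from the first start, were both called in Ma_1069 only, at percentiles of 69.2 and 57.1, and together covered 2.09 kb. *Notum* (ENSMUSG00000042988.10, chromosome 11, 120653788 to 120661175, minus strand), the Wnt deacylase, had no promoter call and 0.761 kb of distal coverage in Ma_1014 alone, at percentiles of 9.09 and 2.02. The 2 elements of the *Notum* window that were in all 9 lists touch promoter windows of other genes and overlap *Mafg* and *Aspscr1*. The paralogues *Znrf3* and *Rnf43* therefore had at least 1.60 kb in every line and 2.09 kb in a single line, respectively.

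By Fisher's exact test (two-sided), 0 of the 5 members with a promoter called in some but not all lists had a p under 0.05. Of the 6978 genes tested, 14.0% did. A promoter called in only 2 lists, as at *Apcdd1* and *Znrf3*, cannot go below a Fisher's exact p of 0.0833. The outcome of those members was therefore fixed in advance. The lowest Fisher's exact p was that of *Apcdd1* (0.0833, adjusted 0.337), and that of *Sp5* was 0.167 (adjusted 0.529). The weak Ma_1007 peak of *Sp5* fell away when each list was cut to its 20741 strongest peaks or at its median −log10 q, and Fisher's exact p was then 0.0476.

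The strength of the best intronic or distal peak, as its percentile within its list, had an unadjusted permutation p under 0.05 for 0 of 8 members, against 9.61% of all genes in either direction. For *Znrf3* it was 92.9, 89.3 and 89.0 in Ma_1057, Ma_1064 and Ma_1069, and 34.4 to 96.6 with a median of 58.4 in the other 6 (exact permutation p = 0.0833). The best peaks of Ma_1057, Ma_1069 and Ma_1007 lay in the downstream flank, in an element that overlaps *Kremen1*, and that of Ma_1064 in an intron of *Znrf3*. For *Nkd1* it was 98.3, 90.3 and 99.2, against 0 to 98.7 (exact permutation p = 0.333). Over the *Nkd1* gene body alone, which leaves out the distal element, the difference was 50.1 percentile points (exact permutation p = 0.0119), and over the *Znrf3* body 29.3 points (exact permutation p = 0.0357). The window of the body alone was added after the data had been seen. Percentiles differed by −12.1 points for *Lgr5* and by −3.65 points for *Axin2*, both within the spread of the lines.

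Genotype alone, 5 ΔEcad against 4 Ecad lines, gave an unadjusted permutation p under 0.05 for 0 of 8 members (smallest possible p 0.00794), against 11.3% of all genes in either direction. *Nkd1* differed by 5.45 kb (exact permutation p = 0.421) and *Znrf3* by 4.34 kb (exact permutation p = 0.405). Within females, where 3 against 2 lines cannot go below a p of 0.1, *Znrf3* coverage was 16.7 ± 3.97 kb (SD, n = 3) in ΔEcad and 2.36 ± 0.056 kb (SD, n = 2) in Ecad lines. Within males, where the smallest p is 0.333, it was 2.92 ± 1.87 kb (SD, n = 2) in ΔEcad and 11.3 ± 5.41 kb (SD, n = 2) in Ecad lines. The same held for *Nkd1*, at 13.2 and 1.87 kb in females and 0.471 and 3.499 kb in males. A test of the difference between the sexes in the genotype effect, added after the data had been seen, permuted genotype within each sex (60 arrangements). It gave 22.7 kb for *Znrf3* (exact permutation p = 0.0167, the smallest possible, adjusted over all genes 0.377) and 14.4 kb for *Nkd1* (exact permutation p = 0.1). Of all genes, 1.65% had an unadjusted permutation p under 0.05 in that direction, against 1 of 8 members. Lines that separated fully in both sexes in these opposite directions were found for 1.80% of genes and for 2 of 8 members. Without Ma_1062 the permutation p of *Znrf3* was 0.0667.

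Peaks of the 9 lists were merged into elements, and 38 intronic and distal elements lay in the windows of 7 of the 8 genes, 17 of them at *Znrf3* and none at *Sp5*, whose peaks merged into 1 element that touches its promoter. Of these, 3 were in all 9 lists (7.89% of the 38, against 8.81% of the 32033 such elements over all gene windows) and 19 of the 38 in 1 list, against 38.5%. Ma_1069 alone had 11 of the 19. It called 73.7% of the 38 but 26.9% of all such elements. Ma_1057 called 47.4% against 32.0% and Ma_1181 44.7% against 31.2%, whereas Ma_1064 called 31.6% against 40.1% and Ma_1007 31.6% against 58.1%. Both female Ecad and both male ΔEcad lines called fewer of the 38 than of all elements, at 10.5 to 23.7% against 29.6 to 41.5%. Lines of 1 group therefore differed among themselves, and Ma_1064 was unlike the other two female ΔEcad lines.

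**Figure D5:**
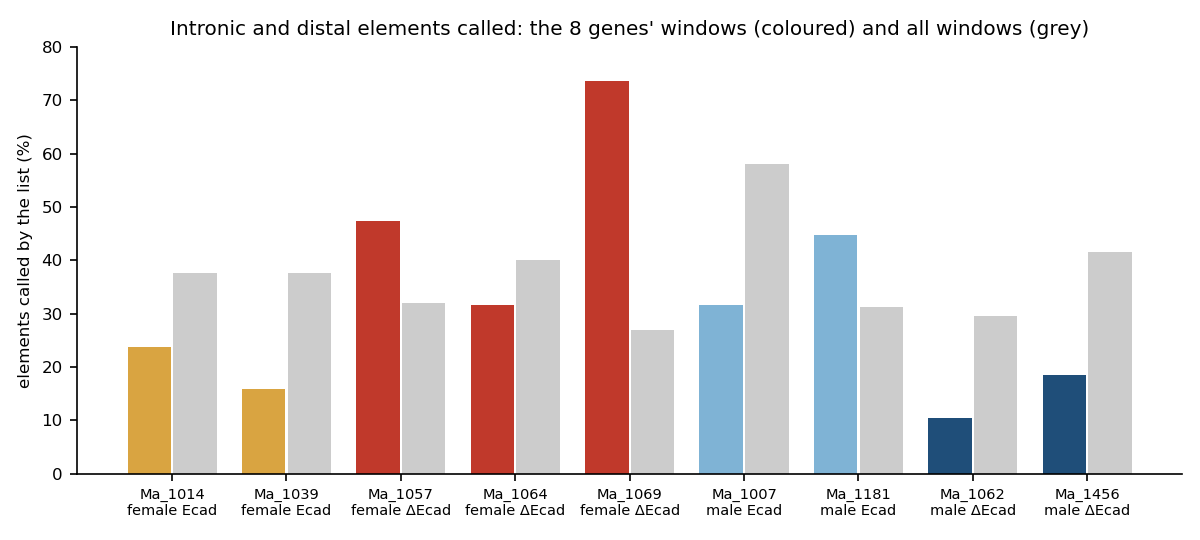
Percentage of intronic and distal elements called by each cell line's list (y axis), for the 38 elements of the 8 genes' windows (coloured by group) and for all 32033 elements of gene windows (grey). Only Ma_1057, Ma_1069 and Ma_1181 have a coloured bar above the grey one.

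By Fisher's exact test, 2 of the 35 elements called in 1 to 8 lists had a p under 0.05 and were called more often in female ΔEcad lines, against 1.70% of 29210 elements, and 0 of 35 less often, against 2.22%. Both lay at *Znrf3*: the downstream element in 3 of 3 and 0 of 6 lines (Fisher's exact p = 0.0119), and the intronic element 154.5 kb from the start in 3 of 3 and 1 of 6 (Fisher's exact p = 0.0476). With lists of equal length the latter had a Fisher's exact p of 0.0833, and when an element had to be covered over most of its length it was no longer called in any female ΔEcad list. Leaving out any line but Ma_1007 brought the Fisher's exact p of that intronic element to 0.107 or 0.143. Every call of both elements lay below the median −log10 q of its list, at percentiles of 8.32 to 29.1 downstream and 14.7 to 39.4 in the intron. Neither element therefore remained when only peaks at or above that median were kept. None of the 29210 passed adjustment (lowest adjusted Fisher's exact p 0.922, with 1144 at an unadjusted p under 0.05). An element called in only 1 list cannot go below a Fisher's exact p of 0.333. The full split of 3 and 0 lines was shared with 171 elements in all, or 0.534% of the 32033.

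To place the 8 genes in their pathway, 2 further lists were examined. Of 18 other β-catenin targets, 13 were tested, with a median difference of −0.18 kb, and 2 had an unadjusted permutation p under 0.05 with more and 2 with less coverage in female ΔEcad lines. Over all genes tested the median was −0.39 kb, with 2.70% of genes called with more and 10.6% with less. *Nkd2*, the paralogue of *Nkd1*, had 0.864 to 1.48 kb in female ΔEcad and 0 to 0.597 kb in other lines (exact permutation p = 0.0119). *Tnfrsf19*, a receptor of the tumour necrosis factor family, had 32.7, 16.3 and 46.3 kb against 2.26 to 16.4 kb (exact permutation p = 0.0238). *Cd44*, an adhesion receptor, had 9.11 to 25.8 kb against 27.9 to 47.0 kb (exact permutation p = 0.0119), and *Bambi*, a pseudoreceptor for TGF-β ligands, 1.31 to 1.84 kb against 2.01 to 3.72 kb (exact permutation p = 0.0238). Of 17 receptors, ligands and destruction-complex genes, 12 were tested, with a median of −0.60 kb, and 1 passed with more and 3 with less, to be read against the same all-gene shares of 2.70% and 10.6%. *Dvl1*, a Dishevelled, had 1.20 to 2.29 kb against 0 to 1.52 kb (exact permutation p = 0.0238). *Lrp5*, a Wnt co-receptor, had 0.316 to 1.90 kb against 3.20 to 6.29 kb (exact permutation p = 0.0119), *Fzd7*, a Wnt receptor, 1.047 to 2.185 kb against 2.191 to 10.1 kb (exact permutation p = 0.0476), and *Ctnnb1*, which encodes β-catenin, 0.917 to 2.11 kb against 2.21 to 6.54 kb (exact permutation p = 0.0476). None of these permutation p-values passed adjustment over all genes (0.234 to 0.359).

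Among 9683 genes with intronic or distal peaks in at least 3 lists and more than 1 Mb away, *Nhsl1* (r = 0.993), *Dact1* (r = 0.978) and *Usp36* (r = 0.973) had covered kb most like those of *Znrf3* over the 9 lines. *Arsi* (r = 0.984), *Cep112* (r = 0.982) and *Lmo2* (r = 0.982) were most like *Nkd1*. *Cxcl14* (r = 0.961), *Cachd1* (r = 0.953) and *Chrdl1* (r = 0.952) were most like *Axin2*, and *Map3k4* (r = 0.991), *Myo16* (r = 0.960) and *Mrpl37* (r = 0.953) most like *Lgr5*. These are the highest Pearson correlations of many and share the 9 lists, so they describe the pattern only. For *Dact1*, whose product also binds Dishevelled, coverage was 5.15, 3.63 and 4.99 kb in Ma_1057, Ma_1064 and Ma_1069, 3.57 kb in Ma_1007, 1.27 kb in Ma_1181 and 0 in the other 4.

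The TCF/LEF letters occurred 49 times in the 59.9 kb of the 35 intronic and distal elements outside chromosome 18, or 0.818 per kb, against 0.490 per kb over all 32033 elements. They were in 65.7% of the 35 and in 47.0% of all. The density was 1.06 per kb at *Axin2*, 0.822 at *Znrf3*, 0.590 at *Nkd1* and 0.546 at *Lgr5*. It was highest at *Notum*, at 2.63 per kb (2 copies in 0.761 kb), and 0.958 at *Rnf43* (2 copies in 2.09 kb). The element called in all 9 lists at the *Axin2* start held 10 copies in 6000 bp, and the broad element of *Nkd1* around its internal start held 7 copies in 9117 bp. Of the elements that marked the female ΔEcad lines, the downstream element of *Znrf3* held 1 copy and the intronic element none.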

How the data were processed

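H3K27ac peak lists of 9 melanoma cell lines were used. Per the labels and the submitters' processing notes, the authors sequenced pooled libraries as read pairs and used Bowtie2 (version 2.4.5), MACS2 (version 2.2.7.1) and deepTools (version 3.5.1.0.0) with GRCm38 (mm10). Settings of the peak calling and the input behind each list are not given in the sources used here. Each deposited list gives per peak a score, a fold enrichment (a linear ratio), a −log10 p, a −log10 q, whose lowest value lay just above 5, and the summit position. The deposited −log10 q was turned into a percentile within its list; the deposited p-value, fold and score columns entered no result. A longer list covers more of any window, and read depth is unknown.

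Genes came from GENCODE M21 and sequence from GRCm38.p6; 4 members had a RefSeq promoter entry. For every protein-coding gene, covered kb outside promoter windows, the number of peaks touching no promoter window and the highest percentile among them were compared by exact permutation tests over lines, and promoter and element calls by Fisher's exact test, all two-sided. P-values were adjusted over all genes or elements tested by the Benjamini-Hochberg method. Python 3.11.15, numpy 2.4.6, scipy 1.17.1 and pysam 0.24.0 were used, and the functions were tested on simulated data.

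Groups came from the sex and genotype in the labels, and each line is 1 sample. The members, the pathway lists and the tests were chosen with earlier results of these data known. Other pathway genes were named where the unadjusted p for covered kb was under 0.05, and 3 genes for each member as most like it. Elements were named when called in all 3 female ΔEcad lists and at most 1 other, in at most 1 of them and at least 5 others, or in all 9 lists; others were named as stated. Alternatives were lists of equal length, only peaks at or above the median −log10 q of their list, other flanks, promoter windows and start sites, coverage per Mb of the list, only peaks touching no promoter window, peaks counted by their summit, a stricter element call and each line left out. The gene body alone, the test between the sexes and the omission of both the longest and the shortest list were added after seeing the data.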

Additional observations from a re-analysis of the deposited data

Results flagged for a closer look

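*Znrf3* and *Nkd1* differed between the sexes in the direction of the genotype difference. Coverage of *Znrf3* was higher in every female ΔEcad than in every female Ecad line and lower in every male ΔEcad than in every male Ecad line, and the genotype difference in females minus that in males was 22.7 kb (exact permutation p = 0.0167, adjusted over all genes 0.377). For *Nkd1* it was 14.4 kb, with the same separation of the lines (exact permutation p = 0.1). This separation was found for 1.80% of the 13126 genes tested.

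Some lines stood far from the others of their set in covered kb, by Dixon's criterion at the 95% level. Ma_1181 did so among the 4 Ecad lines, and among the 6 lines outside the female ΔEcad group, for *Axin2* (8.24 kb, against at most 2.48 kb), *Sp5* (1.99 kb, against 0) and *Apcdd1* (0.294 kb, against at most 0.044 kb). Ma_1069 did so among the 5 ΔEcad lines for *Axin2* (7.65 kb, against at most 3.09 kb), *Sp5* (3.66 kb, against at most 0.25 kb) and *Rnf43* (2.09 kb, against 0). Ma_1014 did so for *Notum* (0.761 kb, against 0) in both sets that hold it. In all, 11 of 21 sets examined had such a line, where chance gives about 1 in 20, but the sets share lines, and a set with 0 in all lines but 1 passes by construction.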

How the results depend on the processing

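Members with an unadjusted p under 0.05, given here with the percentage of all genes called in either direction, were 2 for covered kb (13.3%). They became 1 with only peaks at or above the median −log10 q of their list (11.9%), 4 with a 50 kb flank (14.8%), 1 without both the longest and the shortest list (11.05%) and 0 to 3 without 1 line (6.40 to 12.2%). For peak number, 2 (4.81%) became 1 above the median (4.66%), 4 with a 50 kb flank (5.49%) and 0 to 2 without 1 line (2.65 to 4.71%). For the highest percentile, 0 (9.61%) became 1 with a 10 kb flank (8.90%), 2 with 50 kb (11.4%), 2 over the gene body alone (8.68%) and 0 to 1 without 1 line (6.16 to 9.59%). For promoters, 0 (14.0%) became 1 (*Sp5*) with equal lists (11.2%) or above the median (10.1%), and 0 to 1 without 1 line (8.30 to 15.8%). ΔEcad against Ecad gave 0 as reported (11.3%) and 0 under each alternative run. Elements were 2 as reported (1.70% of all called more and 2.22% less often) and lay between 1 and 3 under the alternatives. The shares over all elements under those alternatives are not given here, so the moved counts cannot be set against them. Neither of the 2 named elements was among those counted above the median. The test between the sexes gave 1 as reported (1.65% in that direction) and lay at 0 or 1, with the shares under the alternatives likewise not given here. It was not counted without a female ΔEcad line, where p cannot go below 0.0556. The permutation p of *Znrf3* covered kb was 0.0119 to 0.0476 over all alternatives that kept all lines or left out the longest and the shortest list, and that of *Nkd1* 0.0238 to 0.0952.

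Directions that reversed, none of them of *Nkd1* or *Znrf3* covered kb, were as follows; the cause was not tested. With a 50 kb flank, *Notum* differed by 4.35 kb (3.38 kb by genotype alone, 3.85 kb between the sexes), 2.33 peaks and 51.7 percentile points, *Sp5* by 65.6 points and *Lgr5* by −0.50 peaks. *Sp5* covered kb was −0.035 over the gene body, −0.157 with only peaks touching no promoter window and −0.27 without the longest and the shortest list, and −0.0525 and −0.31 in the first 2 by genotype alone. *Axin2* was −0.641 kb without those lists and 0.116 kb per 10 Mb by genotype alone. *Sp5* had −0.167 peaks with equal lists, *Lgr5* −0.333 with starts of coding transcripts, *Apcdd1* −1.13 points with a 10 kb flank or the gene body, and the *Znrf3* promoter above the median and its intronic element at 154.5 kb under the stricter call −0.167 as a difference of shares. Without 1 line, covered kb ran from −0.544 to 2.398 for *Axin2* and −0.206 to 1.62 for *Sp5*, by genotype alone from −1.70025 to 0.949 for *Axin2*, −0.434 to 0.782 for *Sp5* and −3.44 to 0.309 for *Lgr5*. Peaks ran from −0.167 to 0.833 for *Apcdd1* and to 0.333 for *Sp5*, percentile points from −3.70 to 13.1 and from −7.16 to 3.17, and the *Znrf3* promoter from −0.167 to 0.333. Over all single genes and elements, 384 values without 1 line and 365 otherwise kept the side of 0.05 and did not turn in direction. Differences that were 0 or became 0 on the same side of 0.05 are among them, as *Rnf43* covered kb without Ma_1069. The call was lost in 29 and 4, gained in 3 and 7, and the direction turned in 10 and 20.

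No paired analysis was possible because the labels give the lines no shared replicate numbers. Lists above a threshold cannot show weak H3K27ac, and 3 lines of 1 group limit every p.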

Other observations

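Coverage around the members, from the window edge out to 500 kb, was measured as a background. Around *Znrf3* it was 35.7 ± 3.59 kb (SD, n = 3) in female ΔEcad and 30.2 ± 13.6 kb (SD, n = 6) in other lines (exact permutation p = 0.560), and around *Nkd1* it was 25.0 and 25.4 kb (exact permutation p = 0.988). Around *Rnf43* and *Notum*, which had almost no peaks of their own, it was 15.5 and 40.8 kb in female ΔEcad lines and 25.1 and 53.6 kb in the others (exact permutation p = 0.0238 and 0.0357, unadjusted). No share over all genes was computed for such surroundings. The female ΔEcad lists also covered less in all, at 29.5 to 39.5 Mb against 37.1 to 67.2 Mb, so a loss particular to these 2 places was not tested. Around *Apcdd1* the coverage was 24.9, 10.3 and 28.2 kb in Ma_1057, Ma_1064 and Ma_1069, 29.7 kb in Ma_1007 and 1.22 to 5.22 kb in the other 5 lines (exact permutation p = 0.107).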
